A study of Mus musculus with 6 samples.

Results

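Lysosomal hydrolases, lysosomal membrane proteins and their transcriptional regulators are described here through 32 genes, of 53465 gene rows in the table. The 32 were chosen by name, and each matched 1 row. By role they are 7 cathepsins, 2 other peptidases, 9 glycosidases, 5 lipid hydrolases and saposins, 6 membrane proteins and 3 transcription factors of the MiT family. The cells were Nras(G12D)/MLL-AF9, a mouse leukaemia line driven by a Kmt2a-Mllt3 fusion together with mutant Nras, grown with SCF, IL-3 and IL-6. The OMP group received 100 µM 4'-O-methylpyridoxine, a vitamin B6 analog, for 6 days, and the Vehicle group received PBS for the same time, with 3 libraries each. Both groups carry the same mutant Nras and fusion. RNA was measured in bulk, so fewer cells of a type and less RNA per cell cannot be told apart, and enzyme protein or activity was not measured.

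Lysosomes break down proteins, glycans, nucleic acids and lipids with acid hydrolases that are made in the endoplasmic reticulum and sorted in the Golgi through mannose phosphate tags or sortilin. Heavily glycosylated membrane proteins such as LAMP1 and LAMP2 line the organelle. TFEB, TFE3 and MITF are basic helix-loop-helix leucine zipper proteins that bind the CLEAR element in many lysosomal promoters, and their entry into the nucleus is controlled through phosphorylation by mTORC1. In myeloid cells the same hydrolases also serve antigen processing and granule protein maturation.

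The promoter stretches of 5 of these genes are shown because they hold the CLEAR core or a run of its inner E-box. RefSeq promoter windows on GRCm38.p6 run from 250 bases before to 50 bases after a transcription start, and 29 of the 32 genes had at least 1, 38 windows in all. The core TCACGTGA was found in 4 genes, and the E-box CACGTG, which lies inside the core, in 10 genes, those 4 included. Both motifs read the same on either strand. Over all 27025 genes with a window, 1.12% held the core and 8.09% the E-box, and over all 32851 windows of the same length the shares were 0.97% and 7.15%. Capitals mark the core, or the E-box in Lamp1.
Ctsd: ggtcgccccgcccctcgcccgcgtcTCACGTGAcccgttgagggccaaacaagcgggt
Cln3: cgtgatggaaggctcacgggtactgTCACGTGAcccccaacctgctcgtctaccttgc
Ctsa: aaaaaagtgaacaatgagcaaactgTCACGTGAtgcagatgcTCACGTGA
Gla: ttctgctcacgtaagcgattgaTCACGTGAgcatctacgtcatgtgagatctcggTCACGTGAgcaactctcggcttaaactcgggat
Lamp1: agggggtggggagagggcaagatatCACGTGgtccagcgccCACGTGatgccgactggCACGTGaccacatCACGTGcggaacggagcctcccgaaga

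The stretches lie at chr7:142387894-142387951 on the minus strand for Ctsd, chr7:126583326-126583383 on the minus strand for Cln3, chr2:164833735-164833784 on the plus strand for Ctsa, chrX:134601168-134601255 on the minus strand for Gla and chr8:13159075-13159172 on the plus strand for Lamp1. Counted from the transcription start, with -1 as the base before it, the core began at -99 in Ctsd, at -122 in Cln3, at -13 and 5 in Ctsa, and at -228 and -195 in Gla. In Ctsa and Cln3 it stood at 1 of 2 annotated starts. Lamp1 held 4 copies of the E-box between -61 and -15. Of the 4 genes with the core, Ctsd and Cln3 were higher with OMP, Gla was lower and Ctsa did not pass the test. Ctsl, Lgmn, Gaa, Glb1 and Naglu each held 1 E-box and no core. A match describes letters in a window and not binding.

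All 32 genes passed the filter, which asked for 3 or more of the 6 libraries at an RPKM of 1 or above. RPKM is the number of reads of a gene divided by its length and by the size of the library. They were mostly well expressed, with a median level at the 76.5th percentile of the 11020 genes tested. The highest levels with OMP were those of Cd63, Laptm5, Ctsd, Ctsz and Lamp1. Library totals recovered from the RPKM steps were 3494986 to 3720117 reads for OMP and 3737843 to 4247619 reads for Vehicle. Of 9 genes that mark the leukaemic myeloid line, 3 were higher (Ptprc, Itgam, Spi1), 3 lower and 3 did not pass, and none was at 0. The lower genes were Mpo, at 2.63 RPKM with OMP and 12.3 RPKM with Vehicle, Kit, at 8.88 RPKM with OMP and 19.8 RPKM with Vehicle, and Cebpa (1.63-fold). Hoxa9 averaged 62.9 RPKM with OMP and 61.8 RPKM with Vehicle. Of the monocyte and macrophage markers, Mertk, C1qa, C1qb and C1qc were at 0 in every library. On the same list Adgre1 averaged 25.9 RPKM with OMP and 27.1 RPKM with Vehicle, and Csf1r 1.76 RPKM and 1.75 RPKM. Neither passed. The 12 neutrophil markers summed to 8962 to 9475 RPKM in OMP libraries and 2678 to 2787 RPKM in Vehicle libraries, with 10 of 12 higher. Most of the sum was S100a8, at 3033 RPKM with OMP and 1091 RPKM with Vehicle, and S100a9, at 5462 RPKM and 1372 RPKM. Csf3r was 1.28-fold lower and Cxcr2 did not pass. The 14 monocyte and macrophage markers summed to 2633 to 2755 RPKM with OMP and 2698 to 2756 RPKM with Vehicle, nearly all of it Ly6c2. Of the 7 that could be tested, 3 were higher and 1 lower, with Cd14 at 76.0 RPKM with OMP and 23.6 RPKM with Vehicle, Fcgr1 2.54-fold higher and Ccr2 1.51-fold lower. Markers of erythroid cells, megakaryocytes, B cells, and T and NK cells summed to at most 3.32 RPKM per list in an OMP library. In a Vehicle library they reached 10.2 RPKM, from Nkg7, which was 5.13-fold lower with OMP. Mast cell and basophil markers, mostly Gata2, summed to 22.8 to 31.5 RPKM with OMP and 28.3 to 30.9 RPKM with Vehicle. Dendritic cell markers summed to 9.47 to 12.2 RPKM and 6.70 to 7.36 RPKM, and eosinophil markers to 1.08 to 1.55 RPKM and 2.06 to 2.63 RPKM. The part of these markers in the lysosomal values was not tested.

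**Figure D1:**
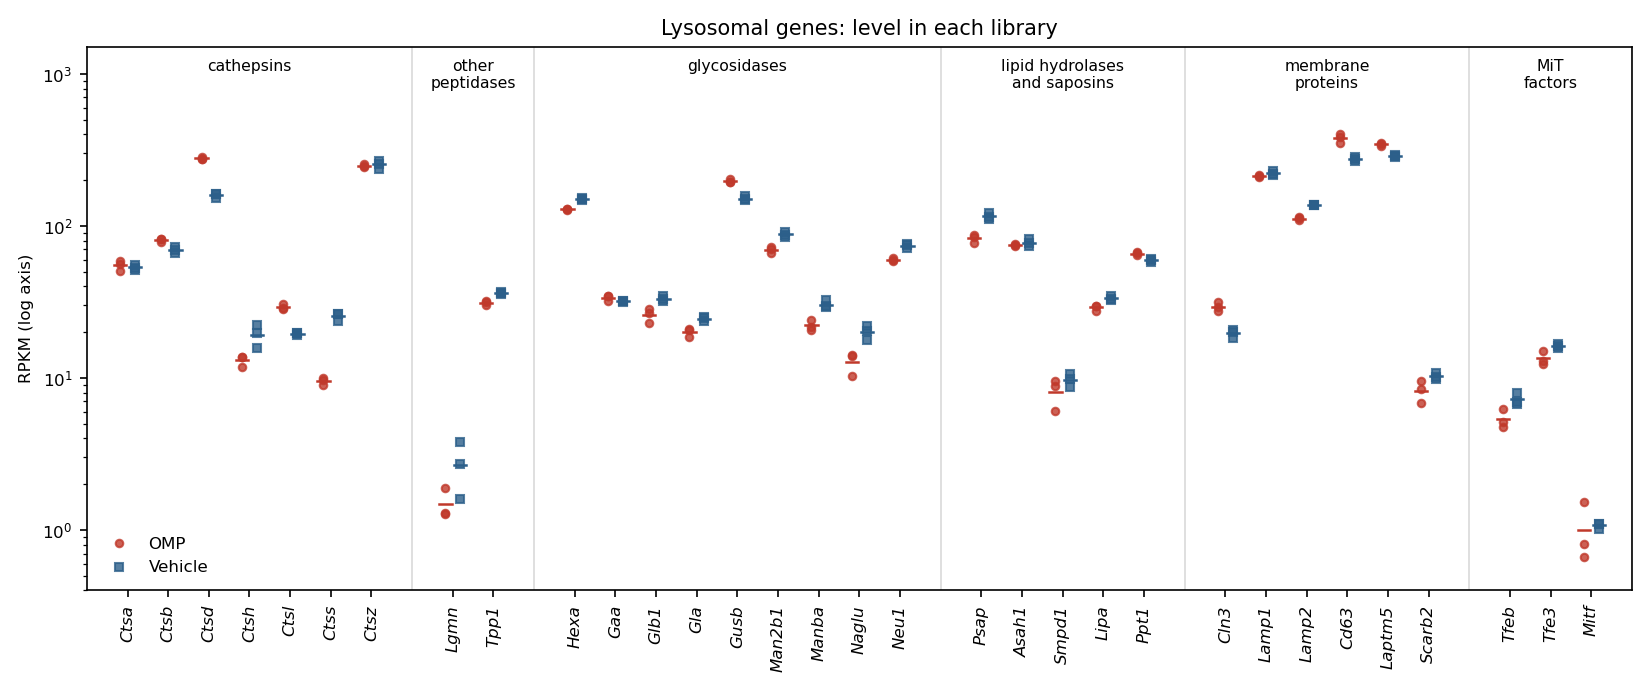
RPKM of each lysosomal gene (log axis) in the 3 OMP libraries (circles, left of each pair) and the 3 Vehicle libraries (squares, right of each pair), with a bar at each group mean, ordered by role. Ctsd, Gusb, Cd63 and Cln3 stand higher with OMP, and Ctss and Psap lower, with no overlap between groups.

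With OMP, 8 of the 32 genes were higher and 15 lower by limma at an adjusted p under 0.05, and 9 did not pass. These are 25% and 46.9% of the genes, beside 15.4% higher and 27.5% lower among all genes tested. Among genes with an RPKM of at least 5, where calls are more frequent, the shares were 19.2% and 33.3%. Every OMP library lay above every Vehicle library in 8 genes and below in 16, where the shares over all genes tested were 19.9% and 34.6%. The median log2 fold change was -0.22, and -0.09 over all genes tested. Most changes were small, and 20 of the 23 genes that passed changed less than 1.5-fold. The split moved with scaling. It was 9 higher and 11 lower with median-of-ratios scaling and 8 and 13 with quantile normalization. After rescaling to TPM it was 6 and 18, and with limma-voom on recovered reads 10 and 11. The shares over all genes tested moved as well. With median-of-ratios scaling 21.5% were higher and 20.3% lower, and with quantile normalization 20.2% and 21.2%. After rescaling to TPM they were 9.77% and 31.3%, and with voom 24.2% and 22.8%. No lysosomal gene that passed changed sign under any of these alternatives.

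The cathepsins moved apart from each other, and Ctsd and Ctss showed the 2 widest changes of all 32 genes that passed. Of the 7, 3 were higher, 2 lower and 2 not called, and the median log2 fold change of 0.05 became -0.04 after rescaling to TPM. Ctsd encodes cathepsin D, the main aspartic protease of lysosomes (ENSMUSG00000007891, chr7:142375911-142388038, minus strand, GRCm38). It stood at 276, 284 and 276 RPKM in the OMP libraries, against 163, 161 and 152 RPKM in the Vehicle libraries. All OMP libraries were well above all Vehicle libraries, a 1.75-fold rise (0.81 ± 0.04 SE in log2, limma adjusted p = 2.15e-06). Ctss encodes cathepsin S, the cysteine protease that trims the invariant chain in antigen-presenting cells (ENSMUSG00000038642, chr3:95526786-95556403, plus strand). It had 9.92, 8.93 and 9.72 RPKM with OMP, against 26.3, 26.3 and 23.6 RPKM with Vehicle. Ctss was 2.58-fold lower (-1.37 ± 0.07 SE in log2, limma adjusted p = 4.97e-06). Its groups lay far apart.

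Ctsl encodes cathepsin L, a broad cysteine endopeptidase (ENSMUSG00000021477, chr13:64359337-64370890, minus strand). Its level was 30.4, 28.8 and 28.5 RPKM with OMP and 19.6, 19.6 and 19.1 RPKM with Vehicle. It rose 1.49-fold (0.58 ± 0.05 SE, limma adjusted p = 8.73e-05) without overlap between groups. Ctsb, cathepsin B, averaged 80.4 ± 2.25 RPKM with OMP and 69.2 ± 3.26 RPKM with Vehicle (SD, n = 3 each), a 1.16-fold rise that did not pass after rescaling to TPM (limma adjusted p = 0.0523). Its exons share 774 bases with Fdft1 on the opposite strand, which averaged 6.36 RPKM with OMP and 9.45 RPKM with Vehicle. Ctsh, cathepsin H, an aminopeptidase, was 1.44-fold lower at 13.1 ± 1.09 RPKM with OMP, against 19.2 ± 3.28 RPKM with Vehicle. Ctsz and Ctsa showed no called change. Ctsz, cathepsin Z, a carboxypeptidase, had 249 ± 6.64 RPKM with OMP and 254 ± 14.9 RPKM with Vehicle, with a 95% interval of the log2 fold change from -0.14 to 0.08. Ctsa, the protective protein that holds beta-galactosidase and neuraminidase in a complex, had 55.1 ± 4.03 RPKM with OMP and 53.3 ± 1.91 RPKM with Vehicle, with an interval from -0.09 to 0.18, and passed as higher only with voom (0.14, limma adjusted p = 0.0328).

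These opposite shifts changed the make-up of the mRNA of the 7 cathepsins. Ratios of RPKM within a library show this, and a scaling factor common to the library leaves them unchanged. Quantile normalization is not such a factor. The pairs were chosen after their values were seen. The sum over the 7 leaves out Ctsc, at 49.3 RPKM with OMP and 58.3 RPKM with Vehicle. Ctsd made up 38.4% to 39.4% of the summed cathepsin RPKM in OMP libraries and 25.4% to 27.6% in Vehicle libraries. Ctsz gave 34.2% to 35.7% with OMP and 40.3% to 44.6% with Vehicle. Ctsd thus had the highest RPKM of the 7 in each OMP library and Ctsz in each Vehicle library. The ratio of Ctsl to Ctss was 3.07, 3.23 and 2.94 with OMP, against 0.747, 0.745 and 0.808 with Vehicle. By RPKM the order of these cysteine cathepsins was therefore opposite in the groups. That order rests on the recovered gene lengths, 6168 bases for Ctsl and 1355 for Ctss. In reads Ctsl stood above Ctss in both groups, at 1943 and 139 over the OMP libraries and 1447 and 415 over the Vehicle libraries. Shares and orders between genes depend on such lengths, while the change of a ratio between groups does not.

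**Figure D2:**
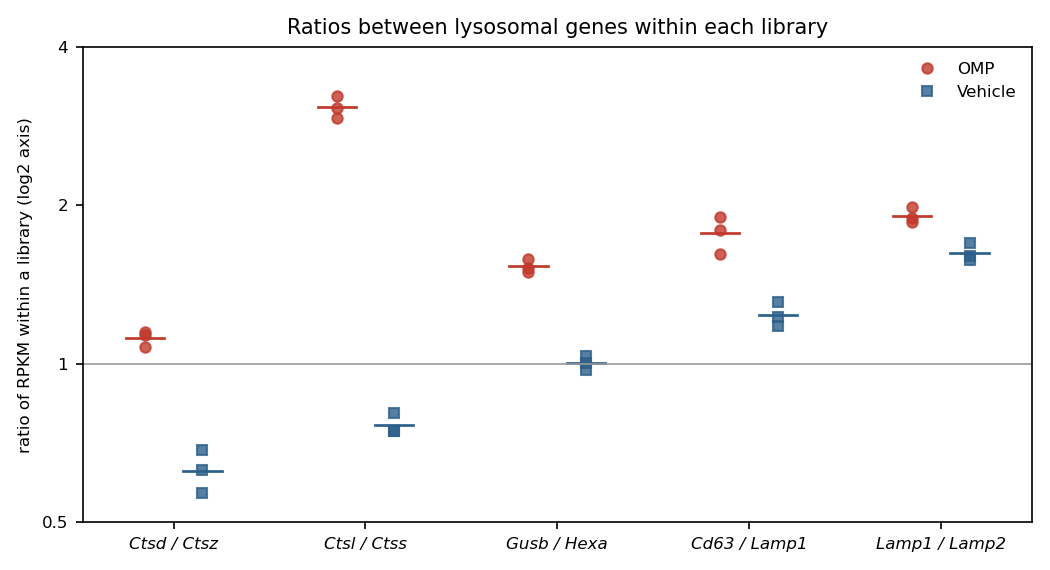
Ratio of the RPKM of 5 gene pairs within each library (log2 axis) for OMP (circles, left) and Vehicle (squares, right), with a bar at each group mean. The Ctsl to Ctss ratio averages 3.08 with OMP and 0.766 with Vehicle, and the Gusb to Hexa ratio averages 1.53 with OMP and 1.0 with Vehicle.

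Of the other peptidases, Tpp1, a tripeptidyl peptidase lost in a neuronal ceroid lipofuscinosis, fell to 31.1 ± 0.978 RPKM with OMP, against 36.2 ± 0.458 RPKM with Vehicle. This 1.16-fold change did not pass with median-of-ratios scaling or voom (limma adjusted p = 0.0662 and 0.0738). Lgmn, the asparaginyl endopeptidase legumain, had 32 reads over the OMP libraries and 64 over the Vehicle libraries. It ranged from 1.27 to 1.89 RPKM with OMP and from 1.6 to 3.76 RPKM with Vehicle, and did not pass (limma adjusted p = 0.102). Without Vehicle replicate 2 the adjusted p was 0.0241 and the log2 fold change -0.91.

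Glycosidases, which cut sugars from glycoproteins, glycolipids and glycosaminoglycans, were mostly lower. Of the 9, 7 were lower, 1 was higher and 1 did not pass, with a median log2 fold change of -0.30, and the count of lower genes was also 7 under each of the other scalings. Naglu, an alpha-N-acetylglucosaminidase of heparan sulfate breakdown, changed most, at 10.3, 14.2 and 13.9 RPKM with OMP, against 21.8, 17.7 and 20.4 RPKM with Vehicle. It was 1.55-fold lower (-0.63 ± 0.13 SE, limma adjusted p = 0.00477), with OMP replicate 1 the lowest. The mannosidase genes Manba and Man2b1 were 1.36-fold and 1.26-fold lower. Glb1 (beta-galactosidase), Neu1 (a sialidase), Gla (alpha-galactosidase A) and Hexa (the alpha subunit of beta-hexosaminidase) were 1.27-fold, 1.23-fold, 1.21-fold and 1.17-fold lower. Each of these genes had every OMP library below every Vehicle library.

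Gusb, beta-glucuronidase, went the other way (ENSMUSG00000025534, chr5:129989011-130003049, minus strand). Its values were 194, 203 and 193 RPKM with OMP and 149, 156 and 148 RPKM with Vehicle. That is a 1.3-fold rise (0.38 ± 0.04 SE, limma adjusted p = 0.000133). Gusb and Hexa had about the same RPKM in Vehicle libraries, with a ratio of 0.973 to 1.03, while with OMP the ratio was 1.49 to 1.58. Gaa, acid alpha-glucosidase, which breaks down lysosomal glycogen, had 33.6 ± 1.57 RPKM with OMP and 31.9 ± 0.468 RPKM with Vehicle. It did not pass (limma adjusted p = 0.287), but did with median-of-ratios scaling (0.16, limma adjusted p = 0.0343) and with voom (0.17, limma adjusted p = 0.0218).

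Among the lipid hydrolases and saposins 1 gene was higher, 2 were lower and 2 did not pass. Psap, the precursor of the saposins that present sphingolipids to their hydrolases, had 77.3, 85.1 and 87.3 RPKM with OMP, against 121, 112 and 115 RPKM with Vehicle. It was 1.39-fold lower (-0.48 ± 0.06 SE, limma adjusted p = 0.000261), and the groups did not overlap. Lipa, the acid lipase that frees cholesterol from its esters, was 1.15-fold lower (limma adjusted p = 0.0183). It did not pass with median-of-ratios scaling, quantile normalization or voom (limma adjusted p = 0.15, 0.0662 and 0.166), nor without Vehicle replicate 2 or without OMP replicate 3 (0.0681 and 0.0592). Ppt1, a palmitoyl thioesterase, was 1.11-fold higher (limma adjusted p = 0.0221). Its call was lost after rescaling to TPM (0.260) and without Vehicle replicate 2, OMP replicate 1 or OMP replicate 2 (limma adjusted p = 0.0790, 0.0613 and 0.0520). Asah1, acid ceramidase, had 74.7 ± 0.715 RPKM with OMP and 77.6 ± 3.71 RPKM with Vehicle and passed as lower only after rescaling to TPM (-0.14, limma adjusted p = 0.0397). Smpd1, acid sphingomyelinase, had 8.13 ± 1.83 RPKM with OMP and 9.71 ± 0.924 RPKM with Vehicle.

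The membrane proteins split, with 3 higher, 1 lower and 2 not called. Cd63 (ENSMUSG00000025351, chr10:128900989-128912822, plus strand) encodes a tetraspanin of late endosomes and secretory granules. It had 383, 401 and 349 RPKM with OMP, against 273, 269 and 282 RPKM with Vehicle. It rose 1.37-fold (0.46 ± 0.05 SE, limma adjusted p = 0.000221) and had the highest RPKM of the 32 genes in every OMP library. Laptm5, a haematopoietic lysosomal membrane protein, was 1.19-fold higher at 343 ± 8.78 RPKM with OMP, against 287 ± 2.96 RPKM with Vehicle. Cln3 (ENSMUSG00000030720, chr7:126571207-126585817, minus strand) encodes a lysosomal membrane protein altered in juvenile Batten disease. It had 27.6, 31.6 and 29.2 RPKM with OMP, against 20.6, 20 and 18.3 RPKM with Vehicle. Its rise was 1.49-fold (0.57 ± 0.07 SE, limma adjusted p = 0.000382). Exons of Cln3 share 442 bases with Apobr on the opposite strand, and Apobr averaged 42.2 ± 3.06 RPKM with OMP and 27.2 ± 1.01 RPKM with Vehicle. Exons of Ppt1 share 129 bases with Cap1 on the opposite strand, which averaged 232 ± 4.55 RPKM with OMP and 179.7 ± 3.29 RPKM with Vehicle. The strand setting of the counting is not given in the sources used here, and the part of these neighbours in the Cln3 and Ppt1 values was not tested.

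The LAMP genes did not move together. Lamp2, needed for fusion of autophagosomes and for chaperone-mediated autophagy, was 1.22-fold lower, with 112, 114 and 109 RPKM in the OMP libraries and 136, 136 and 137 RPKM in the Vehicle libraries (limma adjusted p = 0.000325). Lamp1 had 213 ± 2.60 RPKM with OMP and 222 ± 8.33 RPKM with Vehicle and did not pass (limma adjusted p = 0.281), although it did so, lower, with quantile normalization (-0.10, limma adjusted p = 0.0492) and after rescaling to TPM (-0.14, limma adjusted p = 0.0198). With median-of-ratios scaling its log2 fold change was 0.04. The ratio of Lamp1 to Lamp2 was 1.86 to 1.99 with OMP and 1.58 to 1.70 with Vehicle. Scarb2, a glycoprotein of the lysosomal membrane that also acts in enzyme transport, had every OMP library below every Vehicle library, at 6.82 to 9.56 RPKM with OMP and 9.77 to 10.8 RPKM with Vehicle. It did not pass (limma adjusted p = 0.0690), but did without OMP replicate 3 (0.0250) and after rescaling to TPM (0.0347).

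**Figure D3:**
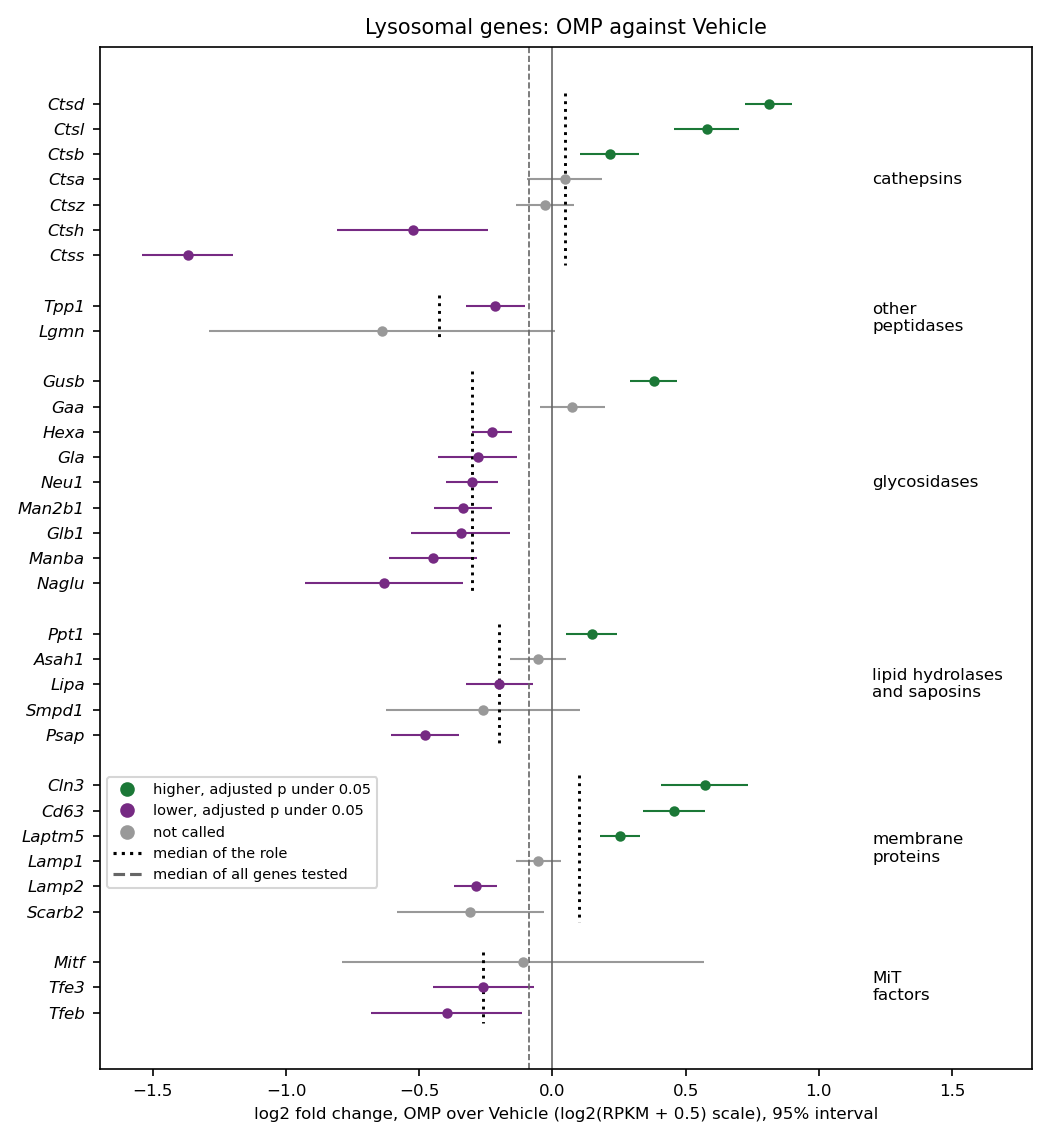
Log2 fold change, OMP over Vehicle, of each lysosomal gene with its 95% interval from limma, grouped by role. Green marks genes called higher and purple genes called lower. Dotted lines give the median of each role, -0.30 for glycosidases and 0.10 for membrane proteins, and the dashed line gives the median of all genes tested.

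The cathepsins were set against the glycosidases and the membrane proteins by the mean log2(RPKM + 0.5) of each role in each library. Cathepsins minus glycosidases came to 0.34, 0.21 and 0.32 in the OMP libraries, against 0.06, 0.17 and 0.05 in the Vehicle libraries, a difference of 0.20 on the log2 scale. Cathepsins minus membrane proteins came to -0.78, -0.91 and -0.86 with OMP, against -0.75, -0.66 and -0.70 with Vehicle, a difference of -0.14. In both cases the groups did not overlap. Taken singly, OMP minus Vehicle was -0.04 for the cathepsin mean, -0.24 for the glycosidase mean and 0.11 for the membrane protein mean. Unlike the differences between roles, these single means move with the scaling of a library. The differences between roles were smaller than the spread within the cathepsins, whose log2 fold changes ran from -1.37 to 0.81, so the role means describe no typical cathepsin. Summed over genes, cathepsin RPKM was 715 ± 7.07 with OMP and 599 ± 9.85 with Vehicle. The sum follows its most abundant genes, and Ctsd alone averaged 279 RPKM with OMP and 159 RPKM with Vehicle. It does not describe a rise of cathepsins as a class, with 3 of 7 called higher and 2 lower. Glycosidase RPKM was 569 ± 11.9 with OMP and 603 ± 1.46 with Vehicle. Membrane protein RPKM summed to 1083 ± 29.6 with OMP and 949.99 ± 11.5 with Vehicle.

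Of the transcription factors, Tfeb and Tfe3 were lower and Mitf did not pass. Tfeb, a main activator of lysosomal genes, had 4.76, 6.25 and 5.16 RPKM with OMP, against 8.0, 6.78 and 6.94 RPKM with Vehicle, which made it 1.32-fold lower (limma adjusted p = 0.0314). Tfe3, a close relative, had 13.0, 14.9 and 12.4 RPKM with OMP, against 16.1, 15.6 and 16.7 RPKM with Vehicle, 1.2-fold lower (limma adjusted p = 0.0336). The OMP libraries lay below the Vehicle libraries for both genes, by a small margin. Neither call held with median-of-ratios scaling, quantile normalization or voom, where the limma adjusted p ran from 0.0733 to 0.179. Leaving out 1 library ended both calls in 5 of 6 cases, all but OMP replicate 2, with limma adjusted p of 0.05 to 0.105. Mitf was near the floor of detection, with 52 reads over the OMP libraries and 63 over the Vehicle libraries (limma adjusted p = 0.793, 95% interval of the log2 fold change from -0.79 to 0.57).

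Other genes of the lysosome and of autophagy, 109 in 9 lists, were read from the same fit. Of the 100 tested, 18 were higher and 29 lower, 53 did not pass, and the median log2 fold change was -0.02. These shares are near those over all genes tested, 15.4% higher and 27.5% lower, and the counts of single lists are read beside the same shares. Among further peptidases 3 of 5 were lower and the other two did not pass. The lower genes included Prcp, a prolyl carboxypeptidase (1.61-fold), and Ctsc, which activates granule serine proteases (1.18-fold). Among further glycosidases and sulfatases 2 of 15 were higher and 4 lower. Their median log2 fold change was -0.02, against -0.30 for the 9 glycosidases above, so the mostly lower pattern did not extend to this list. Galc, galactosylceramidase, was 1.88-fold lower and Sgsh, a sulfatase of heparan sulfate, 1.76-fold lower.

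Gm2a, the activator protein that presents GM2 ganglioside for breakdown, fell to 2.65 ± 0.316 RPKM with OMP, against 8.78 ± 0.141 RPKM with Vehicle (2.96-fold, limma adjusted p = 2.70e-05). Npc2, the soluble cholesterol carrier of lysosomes, was 1.48-fold lower at 58.0 ± 1.94 RPKM with OMP, against 85.9 ± 1.68 RPKM with Vehicle. Grn, progranulin, rose 1.27-fold. In all, 1 of 8 genes of that list was higher and 4 lower. Hexa, Gm2a and Psap, whose products handle sphingolipids, were each lower.

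Further membrane proteins and transporters had 2 of 16 genes higher and 3 lower. Slc15a3, a lysosomal peptide and histidine carrier, rose 2.71-fold to 3.53 ± 0.481 RPKM with OMP, against 0.997 ± 0.255 RPKM with Vehicle, and Cd68, a heavily glycosylated membrane protein that is also on the macrophage list, rose 1.24-fold. Slc29a3 and the arginine sensor Slc38a9 were 1.41-fold and 1.37-fold lower. Mcoln1, a lysosomal calcium channel, did not pass (limma adjusted p = 0.632). The subunits of the vacuolar ATPase, the pump that acidifies lysosomes, moved both ways, with 4 of 16 higher and 5 lower. Atp6v1g1 and Atp6v1a were 1.39-fold and 1.35-fold lower, and Atp6v0e and Atp6v1e1 rose 1.26-fold and 1.25-fold. For delivery of hydrolases, Sort1 (sortilin) was 1.55-fold lower at 31.2 ± 1.17 RPKM with OMP, against 48.6 ± 1.61 RPKM with Vehicle, Gga2 was 1.28-fold lower and Nagpa 1.18-fold higher, with 1 of 8 genes higher and 2 lower.

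Genes of nutrient sensing upstream of TFEB had 3 of 15 higher and 2 lower. Mtor and Lamtor4 rose 1.26-fold each, Lamtor5 and Rheb were 1.33-fold and 1.3-fold lower, and Flcn did not pass (limma adjusted p = 0.815). In autophagy 4 of 14 genes were higher and 5 lower. Sqstm1, the cargo receptor p62, rose 1.73-fold to 356 ± 14.4 RPKM with OMP, against 205 ± 2.88 RPKM with Vehicle (limma adjusted p = 2.32e-06), and Gabarap 1.51-fold. Ulk1, the kinase that starts autophagy, and Wipi1 were 1.69-fold and 1.5-fold lower. Of the cystatins, inhibitors of cysteine cathepsins, Cstb rose 1.4-fold to 163 ± 10.6 RPKM with OMP, against 116 ± 1.37 RPKM with Vehicle. Cst7, an inhibitor that acts on cathepsin C, was 1.29-fold lower, and Cst3 had 99.3 ± 10.8 RPKM with OMP and 99.9 ± 4.59 RPKM with Vehicle.

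**Figure D4:**
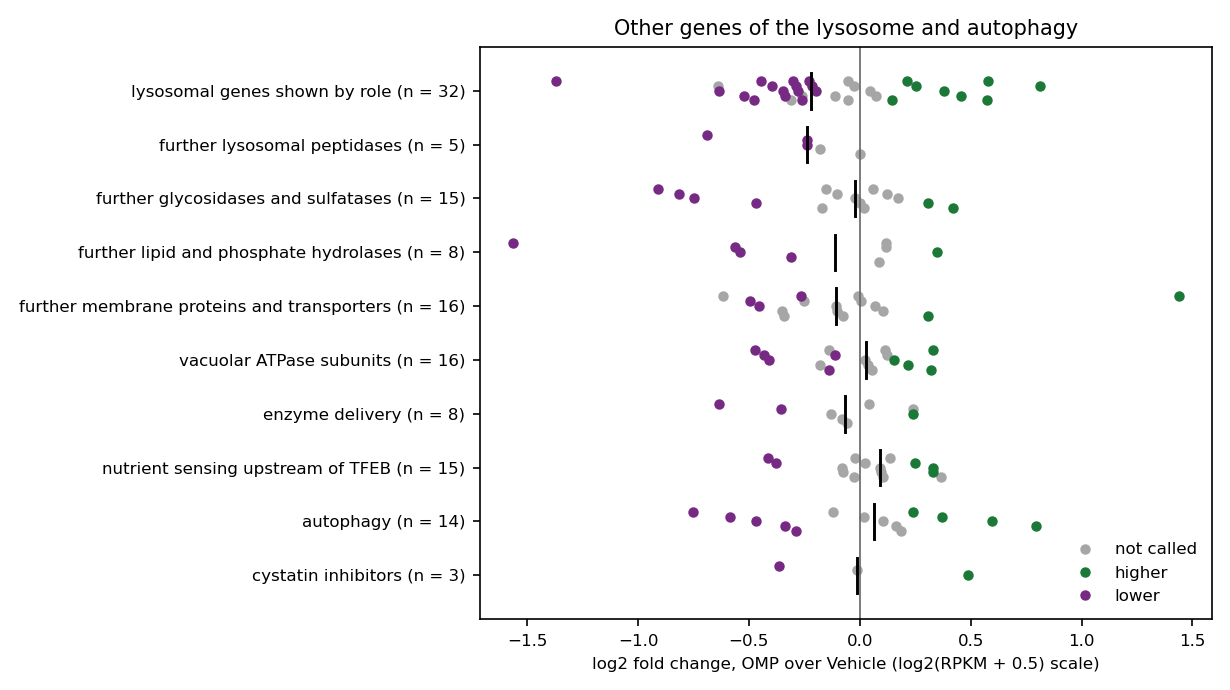
Log2 fold change, OMP over Vehicle, of the 32 lysosomal genes and of 9 lists of other lysosomal and autophagy genes, 1 point per gene tested, with a bar at each list's median. Green points were called higher, purple lower and grey not called, and every list but the further peptidases holds points of both colours.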

How the data were processed

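Poly(A)-selected RNA was sequenced from 3 OMP and 3 Vehicle libraries. The authors deposited RPKM values per gene, 1 column per library. Per the submitters' processing notes the tools were featureCounts 1.6.3, STAR 2.5.3a, Trimmomatic 0.36 and FastQC 0.11.5, on mm10 (GRCm38). No source used here gives the annotation release, strand setting or filters. Columns were matched to libraries by title.

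From these values log2(RPKM + 0.5) was fitted with limma 3.58.1 in R 4.3.3, keeping genes that reached 1 RPKM in 3 or more libraries. The moderated test was two-sided with a trended prior and no covariates, and the threshold was 0.05 after Benjamini-Hochberg adjustment across the 11020 genes that were kept. Fold changes are on this log2 scale and understate those of low genes. The labels do not say whether libraries came from separate cultures, so p-values measure the spread between libraries, which may be technical. Whole reads were recovered from the RPKM steps for 19970 genes, all within a relative tolerance of 1e-06, with gene lengths equal to an annotated transcript for 94.6%. They served for totals, read sums and limma-voom, scaled by a trimmed mean of M-values computed directly. Read sums carry counting error only. Positions came from GENCODE M21 (GRCm38). Of the marker names, Itgam has 2 rows and ENSMUSG00000030786 was used. The procedure was also run on simulated data, and no outcome of that run is reported here. Members, lists and ratio pairs were chosen with earlier results of these data known. All members could be named, and of each other list the 2 largest called rises and falls at most, plus 8 genes fixed by name; some of these are not reported here. Libraries of a group differed by more than sampling noise (chi-square per degree of freedom 1.19 to 1.61). Figures were drawn with matplotlib 3.10.9.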

Additional observations from a re-analysis of the deposited data

How the results depend on the processing

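Over the alternatives run, 3952 to 5184 genes were called in all, 6 to 10 lysosomal genes higher and 11 to 18 lower. The shares of all genes tested ran from 7.35% to 24.2% higher and from 12.8% to 33.3% lower. With single libraries left out, the count was 3952 to 4207 genes, 7 or 8 lysosomal genes higher and 13 to 15 lower, and role differences of 0.17 to 0.24 (cathepsins minus glycosidases) and -0.18 to -0.11 (cathepsins minus membrane proteins). Both role differences moved by less than the spread between libraries under every alternative that gave them, and voom gave none. Of the values of single lysosomal genes under the alternatives, 469 stayed on the same side of 0.05, 32 no longer passed, and 9 newly passed. No gene that passed changed sign. Among those that did not, the log2 fold change took the other sign in 11 values of 6 genes (Ctsa, Ctsz, Gaa, Asah1, Lamp1 and Mitf), and none of these values passed. Those of Tfeb and Tfe3 were also lost without a filter on low values (limma adjusted p = 0.0789 and 0.0647). Scaling moved the median log2 fold change of all genes tested from -0.09 to -0.17 after rescaling to TPM and to -0.00 with median-of-ratios scaling, and the higher share of all calls from 35.9% to 23.8% and 51.4%. Libraries were fitted as unpaired. For those that share a replicate number, deviations from group means had correlations of -0.0024, 0.015 and 0.0069. Not every library correlated best with its own number. These values cannot settle whether libraries shared a culture or batch, because sampling noise makes up much of such deviations and the labels name no batch. Under the replicate block the count was 4445 genes, 8 lysosomal genes higher and 13 lower, and Tfeb and Tfe3 had limma adjusted p of 0.0617 and 0.0602. Depth limits Lgmn and Mitf, with under 130 reads each over all libraries.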
